A study of Mus musculus with 4 samples.

Results

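The high mobility group (HMG) chromatin proteins were represented by 9 genes, taken by symbol from the 26322 genes measured in MC38 cells, a mouse colon carcinoma line. They were Hmga1 and Hmga2, Hmgb1, Hmgb2 and Hmgb3, and Hmgn1, Hmgn2, Hmgn3 and Hmgn5. Cells electroporated with Cas9 protein carrying a guide against Cbfb (sgCbfb, labelled CbfbKO) were compared with cells given a non-targeting guide (sgNT, labelled WT), with 2 libraries in each group. Both groups had therefore received Cas9 and a guide, RNA was prepared at least 1 week after electroporation, and no clone is named for either group. Of 3 replicates collected per group, 2 were used, and the third was left out for RNA of poor quality. Cbfb encodes the shared partner subunit of the RUNX transcription factors, and the comparison asked which transcripts differ when it is deleted. The HMG family was chosen by the log2 CPM differences of its members between sgCbfb and sgNT, which were already known, so those differences are a description. No p-value is given for any member, and whether the fit over all genes called a member only describes where it falls in the table.

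HMG proteins are among the most abundant non-histone proteins of chromatin, and the families bind it in different ways. HMGA proteins use AT-hooks to hold the minor groove of AT-rich DNA, and Hmga2 is an oncofetal gene that is silent in most adult tissues and often active in tumours. HMGB proteins carry a pair of HMG boxes that bend DNA, and HMGB1 released from dying cells also acts as a danger signal to immune cells. HMGN proteins bind the nucleosome itself and compete with linker histone H1.

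Transcripts were read at their 3′ ends, so that long and short transcripts are counted alike. Levels can be set side by side between members, except where reads are shared with copies of a gene (Hmga1, Hmgb1, Hmgn1 and Hmgn2). Levels are given as reads and as CPM (reads scaled to a common library total), whose log2 values were deposited. The sgNT libraries held 3396192 and 3335116 reads on genes and the sgCbfb libraries 3907936 and 3189035, so that 1 read was worth 0.256 to 0.314 CPM. The targeted gene, Cbfb, had 295 and 285 reads in sgNT and 125 and 125 in sgCbfb, a log2 fold change of -1.27 (SE 0.122, limma adjusted p = 1.76e-07). It ran from -1.41 without sgCbfb replicate 2 to -1.12 without sgCbfb replicate 1, and with either of those libraries left out no gene in the table was called. Because RNA was taken from whole cultures, fewer cells with a transcript and less of it per cell cannot be told apart. All 10 colon epithelial markers that were looked for stood at or near 0 (at most 4 reads in any library, and 4 of them at 0 in all 4 libraries), and the list summed to 1.57 to 1.80 CPM. T cell markers were at 0 in all libraries for 6 of 7 genes, and macrophage markers for 4 of 5. Of 6 fibroblast markers, Lum and Thy1 were at 0, and the list summed to 184 and 171 CPM in sgNT and 132 and 143 CPM in sgCbfb. Within it Col3a1, a collagen, fell from 386 and 354 reads to 217 and 197 (log2 fold change -0.90, SE 0.102, limma adjusted p = 2.46e-06). Pdgfra, a growth factor receptor, had 121 and 91 reads in sgNT and 169 and 152 in sgCbfb (log2 fold change 0.53, SE 0.148, limma adjusted p = 0.0515), with separated groups. Of the 4 tested markers, 2 had positive and 2 negative values, Col1a1 standing at 0.41 and Dcn at -0.17, and the list's median was 0.12. The part of that marker list in the HMG values was not tested.

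The start regions of 4 members are shown because each of the 3 Hmgb genes has a start with several copies of the same short promoter letters, and because Hmgn1 has the only match to the RUNX letters. Each run covers 250 bases before to 50 bases after an annotated start (RefSeq, GRCm38.p6) on the strand of the gene. The Hmgb2 window ends before the start of that gene in the GENCODE M21 annotation (57511907), so its RefSeq start is not shared by that annotation. Capitals mark CCAAT or its reverse complement ATTGG, the letters bound by the factor NF-Y, and TGTGGT or its reverse complement ACCACA, the core letters bound by RUNX factors. Both strands were searched and matches of the 2 motifs may overlap by a base.
Hmgb3, chrX:71555667-71555966, plus strand: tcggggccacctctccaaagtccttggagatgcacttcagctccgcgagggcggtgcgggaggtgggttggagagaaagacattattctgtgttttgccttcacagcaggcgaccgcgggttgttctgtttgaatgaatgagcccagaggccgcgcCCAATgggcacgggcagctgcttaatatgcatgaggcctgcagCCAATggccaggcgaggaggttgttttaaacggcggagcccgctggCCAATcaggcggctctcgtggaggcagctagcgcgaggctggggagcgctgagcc
Hmgb1, chr5:149053008-149053307, minus strand: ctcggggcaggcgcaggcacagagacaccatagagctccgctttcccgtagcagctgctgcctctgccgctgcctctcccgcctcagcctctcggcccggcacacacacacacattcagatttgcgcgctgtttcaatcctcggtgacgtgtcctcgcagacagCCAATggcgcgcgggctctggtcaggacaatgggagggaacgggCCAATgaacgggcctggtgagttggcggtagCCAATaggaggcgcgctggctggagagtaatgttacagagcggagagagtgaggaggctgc
Hmgb2, chr8:57511593-57511892, plus strand: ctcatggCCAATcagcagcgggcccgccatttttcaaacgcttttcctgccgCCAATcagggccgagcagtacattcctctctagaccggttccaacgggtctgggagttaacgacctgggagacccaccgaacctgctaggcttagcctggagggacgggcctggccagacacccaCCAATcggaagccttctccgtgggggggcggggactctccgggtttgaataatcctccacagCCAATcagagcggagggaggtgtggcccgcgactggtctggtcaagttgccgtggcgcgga
Hmgn1, chr16:96127676-96127975, minus strand: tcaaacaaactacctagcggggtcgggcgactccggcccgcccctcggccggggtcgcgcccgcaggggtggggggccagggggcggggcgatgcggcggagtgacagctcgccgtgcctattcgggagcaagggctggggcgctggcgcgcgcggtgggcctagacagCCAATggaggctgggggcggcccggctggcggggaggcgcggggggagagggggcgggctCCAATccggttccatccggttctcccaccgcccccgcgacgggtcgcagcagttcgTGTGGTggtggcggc

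The CCAAT letters occurred 3 times before the Hmgb3 start, 3 times in the upstream Hmgb1 window shown and 4 times at Hmgb2. Among 32851 promoter windows of the same length, 3.37% held at least 3 matches and 1.06% at least 4. A second Hmgb1 start, chr5:149051567-149051866, held none. Hmgn1 and Hmgn5 held 2 matches each, Hmgn2 held 1, and Hmga1 and Hmga2 held 0. At least 2 matches were found in 11.7% of all windows and at least 1 in 37.4%. The RUNX letters were found in 1 of the 10 windows of the 8 members with an entry. That match began 36 bases after the Hmgn1 start, and 16.8% of all windows held at least 1. Hmgn3 was not matched. These are letters in a window, not measured binding.

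Hmga2 is shown with the microRNA family known to silence it. The mature let-7a-5p sequence (RefSeq, GRCm38.p6), with its seed (bases 2 to 8) in capitals, is shared in that seed by 11 mature mouse microRNAs.
let-7a-5p: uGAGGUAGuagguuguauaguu
The reverse complement of the seed, CTACCTC, occurred 4 times in the longest annotated Hmga2 3′ UTR of 3014 bases. It occurred 1 time in that of Hmga1. The longest 3′ UTRs of the other 7 members held 0. Of 21663 genes with an annotated 3′ UTR, 8.75% held at least 1 match and 12 genes (0.0554%) held 4 or more. MicroRNAs were not measured.

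As listed, Hmgn1 and Hmga2 had the highest levels in both groups, and the order of the 9 mean levels was the same in sgNT and sgCbfb. The places of Hmga1, Hmgb1, Hmgn1 and Hmgn2 in it are uncertain, since their reads may be shared with copies. In sgNT, mean log2 CPM ran from Hmgn1 (9.24) through Hmga2 (9.01), Hmgb2 (8.28), Hmgb1 (8.07), Hmgb3 (7.64), Hmgn5 (7.31), Hmgn3 (6.59) and Hmga1 (5.19) down to Hmgn2 (1.37). No neighbours in that order overlapped between their 2 sgNT libraries. In sgCbfb, Hmgb2 and Hmgb1 overlapped, as did Hmgb1 and Hmgb3, so that Hmgb2 stood above Hmgb3 (285 to 296 against 260 to 269 CPM) and Hmgb1 could not be placed between them beyond its spread. As a share of all reads, the 9 genes held 0.218% and 0.220% in sgNT, and 0.240% and 0.229% in sgCbfb. In CPM these sums were 2181 and 2202 against 2404 and 2288. Without Hmgb3 and Hmgn1, the other 7 genes summed to 1367 and 1405 CPM in sgNT and 1412 and 1353 in sgCbfb, so that the groups overlapped.

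**Figure D1:**
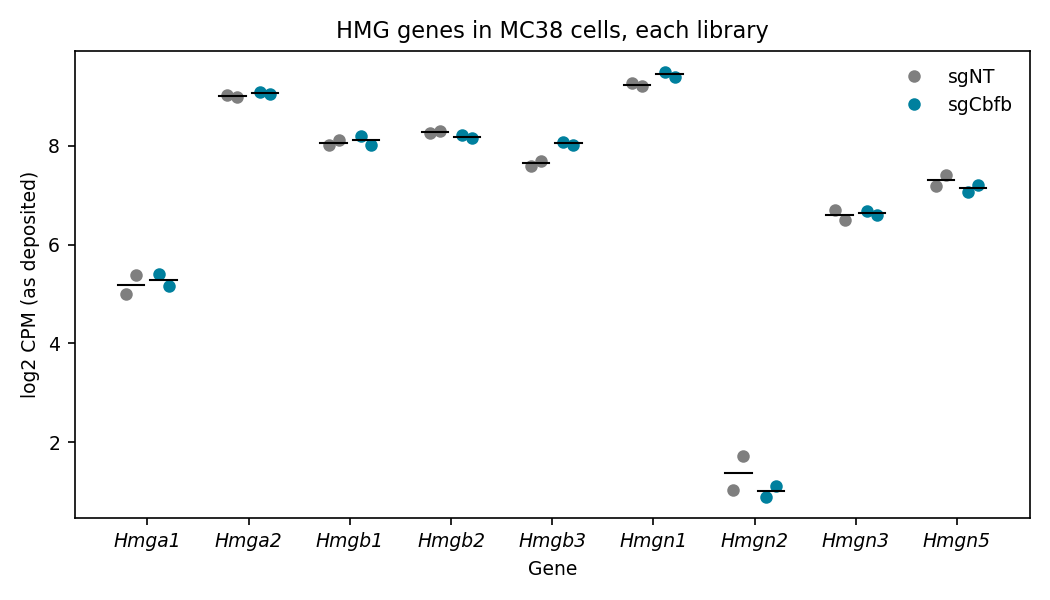
Level of each HMG gene (deposited log2 CPM, y axis) in each library, with sgNT in grey and sgCbfb in blue, and black bars at the mean of the 2 libraries. Hmgb3, Hmgn1 and, narrowly, Hmga2 sit higher in both sgCbfb libraries, Hmgb2 sits lower, and Hmgn2 lies far below the other members.

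Across the family, 1 member, Hmgb3, was called higher in sgCbfb by the limma fit over all 12207 tested genes (adjusted p under 0.05), and 0 were called lower. All 9 members passed the minimum for testing. Of all tested genes, 1.57% were called higher, 1.25% lower and 2.83% in either direction. Since the family was chosen with these differences known, nothing is read from the count against that background. The log2 fold changes were positive for 6 members and negative for 3, from -0.38 (Hmgn2) to 0.41 (Hmgb3). Their median was 0.05, against 0.04 over all tested genes. Both sgCbfb libraries lay above both sgNT libraries for 3 members, Hmga2, Hmgb3 and Hmgn1, and below them for 1, Hmgb2. That separation was met upwards by 27.4% and downwards by 16.8% of all tested genes.

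**Figure D2:**
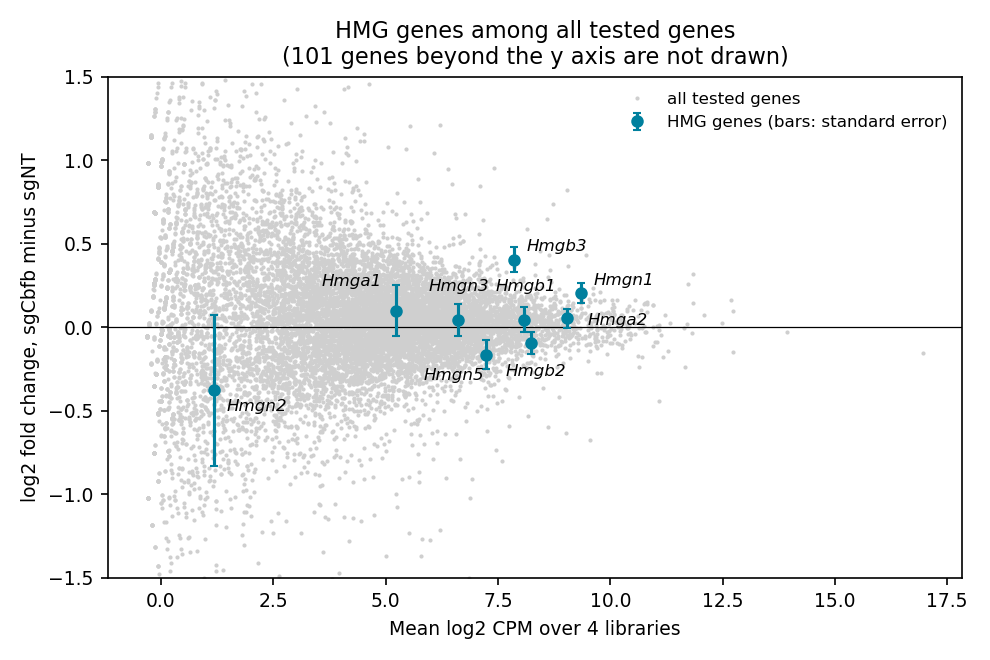
Log2 fold change of sgCbfb over sgNT (y axis) against mean log2 CPM over the 4 libraries (x axis) for all tested genes (grey) and the HMG genes (blue, bars show the standard error of the fit). Hmgb3 stands at 0.41 and Hmgn1 at 0.21, while 6 of the other 7 lie between -0.16 and 0.10 and Hmgn2 has a wide error at a low level.

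Hmgb3 had the largest log2 fold change of the family. It lies on the X chromosome (ENSMUSG00000015217, GRCm38 chrX:71555918-71560676, plus strand) and encodes an HMG-box protein known from blood stem cells and embryos. Its reads were 651 and 692 in sgNT and 1052 and 828 in sgCbfb. As log2 CPM these were 7.59 and 7.70 against 8.08 and 8.02, so that the higher sgNT library lay below the lower sgCbfb library. The log2 fold change was 0.41 (SE 0.072), or 32.5% above sgNT. The libraries of a group differed by an SD of 0.081 in sgNT and 0.037 in sgCbfb on the log2 scale. Counting error alone gives 0.045 to 0.057 at these reads. The call was lost under quantile normalisation, without the mean-variance trend, without sgNT replicate 1 and without either sgCbfb library. Its log2 fold change was 0.35 without sgNT replicate 1, 0.38 without sgCbfb replicate 1 and 0.43 without sgCbfb replicate 2, and over 13 alternatives it ran from 0.35 to 0.46. In the 8 that called it, the share of all tested genes called higher was 0.941% with no filter, 3.14% with a minimum of 5 CPM, 1.44% with median centring, 2.11% and 1.43% under voom with library totals and with median-of-ratios scaling, 1.27% without ribosomal RNA in the totals, 2.62% with the replicate block and 0.852% without sgNT replicate 2. In the others it was 0.319% under quantile normalisation, 0.942% without sgNT replicate 1, and 0% without the trend or without either sgCbfb library.

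Hmgb1, the most studied danger signal of the family, and Hmgb2, its close paralogue in dividing cells, were not called. Hmgb1 (ENSMUSG00000066551, chr5:149046702-149184489, minus strand) had 879 and 921 reads in sgNT and 1148 and 827 in sgCbfb. Its groups overlapped at 8.02 and 8.11 against 8.20 and 8.02 log2 CPM, with a log2 fold change of 0.05 (SE 0.073). Hmgb2 (ENSMUSG00000054717, chr8:57511907-57515999, plus strand) had 1033 and 1051 reads in sgNT and 1158 and 908 in sgCbfb. Its log2 CPM values of 8.25 and 8.30 against 8.21 and 8.16 did not overlap, with a log2 fold change of -0.09 (SE 0.066). Of the reads on the 3 Hmgb genes, Hmgb3 took 25.4% (95% Wilson interval 23.8 to 27.1) and 26.0% (24.4 to 27.7) in sgNT. In sgCbfb it took 31.3% (29.8 to 32.9) and 32.3% (30.5 to 34.1). Intervals cover the counting error of each library only, not the spread between replicates. This share is built from the values by which the family was chosen, so it is a description with no test.

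Neither HMGA gene was called. Hmga2 (ENSMUSG00000056758, chr10:120361275-120476469, minus strand) had 1773 and 1703 reads in sgNT and 2124 and 1685 in sgCbfb. Its log2 CPM was 9.03 and 9.00 against 9.09 and 9.05, a narrow separation with a log2 fold change of 0.05 (SE 0.058). That value was 0.019 under quantile normalisation and 0.015 under voom with median-of-ratios scaling. Hmga1 (ENSMUSG00000046711, chr17:27556497-27563674, plus strand), the other AT-hook gene, had 106 and 137 reads in sgNT and 163 and 113 in sgCbfb. Its groups overlapped, at 4.99 and 5.38 against 5.40 and 5.17 log2 CPM, with a log2 fold change of 0.10 (SE 0.152). Leaving out single libraries moved that value between -0.09 and 0.30, so its direction depended on which library was used. Hmga2 was listed at 511 to 544 CPM and Hmga1 at 31.2 to 41.7 CPM, the latter uncertain because most of its end sequence is shared with a copy.

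Among the nucleosome-binding HMGN genes, Hmgn1 was the one with separated groups. Hmgn1 (ENSMUSG00000040681, chr16:96120618-96127729, minus strand) had 2115 and 1965 reads in sgNT and 2823 and 2156 in sgCbfb. Its log2 CPM was 9.28 and 9.20 against 9.50 and 9.40, with a log2 fold change of 0.21 (SE 0.059), or 15.4% above sgNT. It lay outside the threshold in the reported fit and was called in 4 of 13 alternatives, namely both voom fits, the minimum of 5 CPM and the replicate block, with log2 fold changes from 0.16 to 0.25 over the 13. Hmgn5 (ENSMUSG00000031245, chrX:109004534-109013404, minus strand), a longer relative with an acidic tail, had 496 and 567 reads in sgNT and 524 and 470 in sgCbfb. Its groups overlapped, at 7.20 and 7.41 against 7.07 and 7.21 log2 CPM, with a log2 fold change of -0.16 (SE 0.088), which ran from -0.27 to -0.05 with 1 library left out. Hmgn3 (ENSMUSG00000066456, chr9:83109948-83146685, minus strand) had 349 and 298 reads in sgNT and 397 and 306 in sgCbfb, with overlapping groups and a log2 fold change of 0.04 (SE 0.097). Hmgn2 (ENSMUSG00000003038, chr4:133964738-133968650, minus strand) had only 5 and 9 reads in sgNT and 5 and 5 in sgCbfb. At that depth counting error alone is 0.48 to 0.65 on the log2 scale, and its log2 fold change of -0.38 (SE 0.451), which ran from -0.71 to -0.04 with 1 library left out, was not detectable as a difference.

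**Figure D3:**
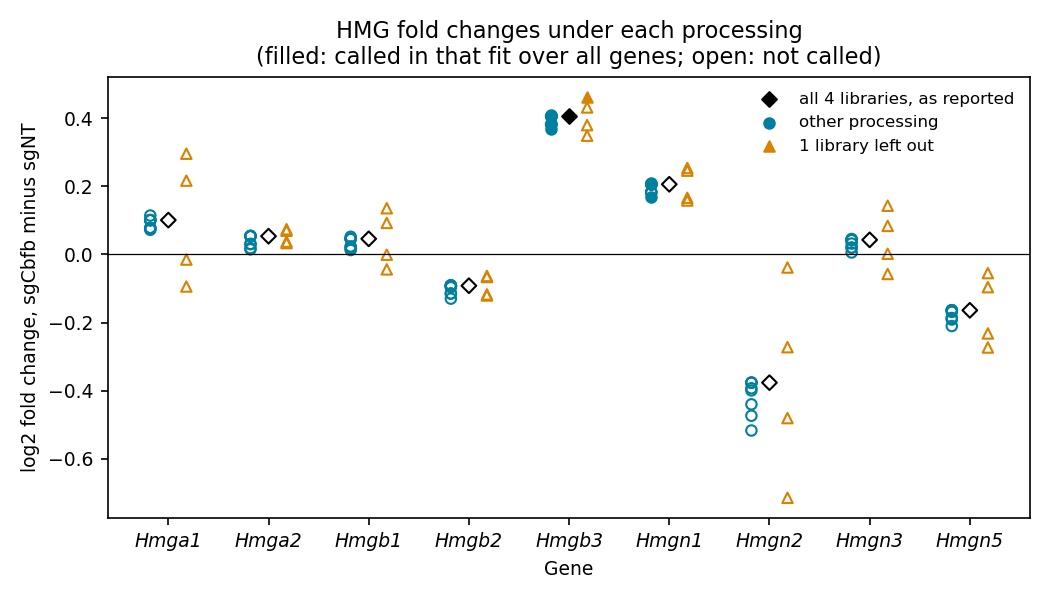
Log2 fold change of each HMG gene (y axis) as reported (diamonds), under other processing of all 4 libraries (circles) and with 1 library left out (triangles), filled where the gene was called in that fit over all genes. Hmgb3, Hmgn1 and Hmga2 stay above 0 at every setting, and Hmgb2, Hmgn2 and Hmgn5 stay below it. Hmga1, Hmgb1 and Hmgn3 change sign when single libraries are left out.

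How far the reads of a member can be told from those of its copies was read from the transcript ends. Every window of 75 bases, the read length, in the last 500 bases of each annotated transcript (GENCODE M21, GRCm38) was searched for an exact copy in the 141767 annotated transcripts. Hmga2, Hmgb2, Hmgb3, Hmgn3 and Hmgn5 shared 0 of their windows with another gene of that annotation. The pseudogene Hmga2-ps1 was not matched in the searched transcripts, so the 0 for Hmga2 does not cover it. Hmga1 shared 59.3%, all of them found also in Hmga1b, and its last 2000 bases are overlapped by the antisense gene AI413582. Hmgb1 shared 46.2% of its windows with 60 other genes, but 0 of those at the end of its longest 3′ UTR. Hmgn1 shared 13.9% over all ends and likewise 0 at the longest one. Hmgn2 shared 41.5% over all ends and 51.9% at its longest 3′ UTR, with 11 other genes. The handling of reads that fit more than 1 gene and the use of strand are not given in the sources used here, so the values of Hmga1, Hmgb1, Hmgn1 and Hmgn2 are uncertain to that extent, and whether it set the low Hmgn2 level was not tested. Hmga1b itself, on chr11:120762794-120764419, had 19 and 19 reads in sgNT and 28 and 15 in sgCbfb.

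**Figure D4:**
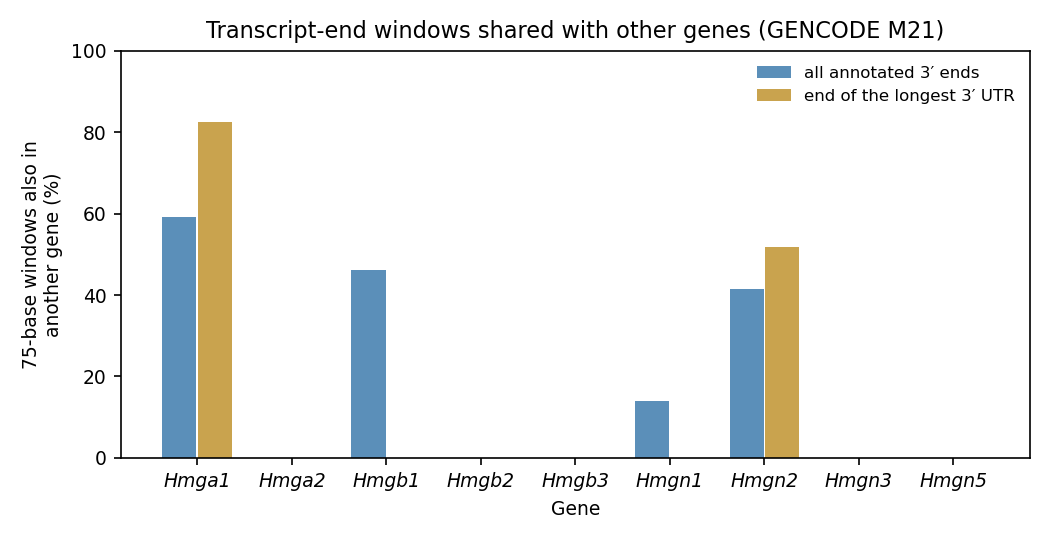
Percent of 75-base windows near the transcript end (y axis) that also occur in another gene, for each HMG gene, over all annotated ends (blue) and at the end of the longest 3′ UTR (ochre). Hmga1 and Hmgn2 are high by both measures, and Hmgb3 is at 0.

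Of 5 further rows whose symbols begin with Hmga, Hmgb or Hmgn, only Hmga1b and Hmga2-ps1 had 10 or more reads in a library. Hmga2-ps1, a transcribed pseudogene at chr1:176834624-176836133 (RefSeq, GRCm38.p6), had 8 and 12 reads in sgNT and 26 and 20 in sgCbfb. Its log2 fold change of 1.008 (SE 0.355) missed the threshold (limma adjusted p = 0.150), while Hmga2 itself had a log2 fold change of 0.05.

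The genes whose profile over the 4 libraries lay nearest to that of Hmgb3 were sought among 4862 genes with a mean log2 CPM of at least 5. Likeness was the root mean square distance between mean-centred log2 CPM values, and the 5 nearest were Gsto1 (0.0194), Phf20 (0.022), Afdn (0.0248), Fabp5 (0.0252) and Baz2b (0.0272). Gsto1, a glutathione transferase, had 1112 and 1189 reads in sgNT and 1861 and 1430 in sgCbfb. Phf20, a reader of methylated histones, had 138 and 142 reads against 225 and 176. Likeness here includes the difference between the groups, and the genes share all 4 libraries.

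Of 24 further genes for proteins with an HMG box, 20 were tested, and the other 4 (Hmgb4, Tox, Tox2 and Tox3) had 0 reads in every library. Of these 20 tested genes, 1 rose and 1 fell, where 1.57% and 1.25% of all tested genes did, and the median log2 fold change was 0.07. An unadjusted p under 0.05 was found for 5 of them (25%), against 14.9% of all tested genes. This list and those that follow were chosen with earlier results of these data known, so nothing is read from such shares. Sox4, a SOX transcription factor of progenitor cells and tumours, rose from 347 and 338 reads to 700 and 601 (log2 fold change 0.85, SE 0.082, limma adjusted p = 1.90e-07). Sox9, a SOX factor of the intestinal crypt, fell from 1045 and 1018 reads to 1017 and 822, which is 8.27 and 8.26 against 8.03 and 8.01 in log2 CPM. Its log2 fold change of -0.24 (SE 0.067) lay just inside the threshold (limma adjusted p = 0.0483), and the call was lost with any 1 library left out, where it ran from -0.25 to -0.24, and also without the filter on low values (-0.24), under quantile normalisation (-0.27) and without the trend (-0.24). Sox4 kept its call without sgNT replicate 1 or 2 (0.85 and 0.84) and lost it without the trend (0.85) and without either sgCbfb library (0.89 and 0.81). Ssrp1, the HMG-box subunit of the FACT histone chaperone, had a log2 fold change of 0.13 (SE 0.058, limma adjusted p = 0.262). Smarce1 and Pbrm1, HMG-box subunits of SWI/SNF remodelling complexes, had log2 fold changes of 0.10 and 0.02, and neither passed the test.

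Linker histones, which HMGN and HMGA proteins displace from nucleosomes, showed 0 limma calls among 7 tested genes (1, or 14.3%, at an unadjusted p under 0.05, 0 and 1 called by the voom fits), with 6 of the 7 values negative (5249 of all 12207 tested genes were negative) and a median log2 fold change of -0.11. Hist1h1b had 195 and 197 reads in sgNT and 159 and 151 in sgCbfb, with separated groups and a log2 fold change of -0.40 (SE 0.123, limma adjusted p = 0.0825). It was called lower with a minimum of 5 CPM, with the replicate block and under voom with median-of-ratios scaling. Of all tested genes, 1820 (14.9%) had an unadjusted p under 0.05, which is the background for these counts and those of the lists that follow. H1f0 and Hist1h1e, with more reads, had log2 fold changes of -0.03 and -0.11, and Hist1h1c of -0.15. How fully 3′ reads capture linker histone transcripts was not tested, so these reads may not stand for their levels. With 1 library left out, Hist1h1e ran from -0.18 to -0.05 and Hist1h1c from -0.25 to -0.04. Histone chaperones and nucleosome assembly factors showed 0 calls among 16 in the reported limma fit (6, or 37.5%, at an unadjusted p under 0.05, 1 and 2 by voom), with a median of 0.02. Npm3 (log2 fold change -0.26, SE 0.075, limma adjusted p = 0.0630) was called lower in 4 other limma fits and both voom fits. Those limma fits were the minimum of 5 CPM, median centring, totals without ribosomal RNA and the replicate block. Nucleolin (Ncl, 0.07), Npm1 (0.02), the histone variant gene H2afz (0.13) and Nap1l1 (-0.12) were the most abundant of the 16. With 1 library left out, H2afz ran from 0.05 to 0.21.

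The SET complex, in which HMGB2 was found together with the nucleosome assembly protein SET, had 1 call among 6 tested genes (2.83% of all tested genes were called), 2 (33.3%) at an unadjusted p under 0.05 and a median log2 fold change of 0.09. Anp32a, an acidic nuclear phosphoprotein of that complex, rose from 367 and 334 reads to 546 and 445 (log2 fold change 0.42, SE 0.087, limma adjusted p = 0.00473). The call was lost without sgNT replicate 2 (0.37), under quantile normalisation (0.41) and without the trend (0.42), besides the fits without either sgCbfb library. Set (0.13), Anp32b (-0.04) and Nme1 (0.02) did not pass the test. Receptors and partners of extracellular HMGB1 were scarce: 2 of 12 had 0 reads in all libraries, the 10 tested showed 0 limma calls (2, or 20%, at an unadjusted p under 0.05, 0 by either voom fit), and the median was 0.07. Myd88, the adaptor of Toll-like receptors, had 101 and 95 reads in sgNT and 109 and 84 in sgCbfb. Ager, which encodes the HMGB1 receptor RAGE, had 6 and 3 reads in sgNT and 9 and 3 in sgCbfb. Tlr4, another receptor for HMGB1, had 29 and 35 reads against 24 and 17 (log2 fold change -0.67, SE 0.295, limma adjusted p = 0.272). Tlr2, another Toll-like receptor, went the other way without passing the test, with 21 and 9 reads against 28 and 26 (log2 fold change 0.80, SE 0.356, limma adjusted p = 0.277). It was 0.28 without sgNT replicate 2 and 1.33 without sgNT replicate 1. Cd14 had 27 and 20 reads against 14 and 20.

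The genes of let-7 biogenesis and oncofetal control, which bear on Hmga2, gave 1 call among 12 tested, against 2.83% of all tested genes, 2 (16.7%) at an unadjusted p under 0.05 and a median of -0.08. Igf2bp1 encodes an oncofetal RNA-binding protein, and its longest 3′ UTR also held 4 reverse complements of the let-7 seed. It rose from 14 and 8 reads to 45 and 34 (log2 fold change 1.64, SE 0.328, limma adjusted p = 0.00361). The call was lost without sgNT replicate 2 (1.31), under quantile normalisation (1.57) and without the trend (1.64), besides the fits without either sgCbfb library. The log2 fold change of Hmga2 in the same 4 libraries was 0.05. Lin28b, which blocks let-7 processing, had at most 4 reads in a library, and Lin28a, Trim71 and Mycn had 0 in all. Drosha and Ago2 of the microRNA pathway, the uridylyltransferase gene Zcchc11 and Igf2bp2 had log2 fold changes between -0.06 and 0.08, none called. Proliferation genes, which often run with Hmgb2, gave 0 calls among 20 in the reported limma fit (4, or 20%, at an unadjusted p under 0.05, 0 and 1 by voom), with 10 positive and 10 negative values and a median of 0.00. Cenpf (log2 fold change -0.23, SE 0.069, limma adjusted p = 0.0827) was called lower with a minimum of 5 CPM and with median centring. The same call was made without ribosomal RNA in the totals and under voom with median-of-ratios scaling. Top2a (0.03), Birc5 (-0.05), Mki67 (-0.08) and Cdk1 (0.17) were the most abundant of the 20. With 1 library left out, Top2a ran from 0.01 to 0.05 and Birc5 from -0.09 to -0.02. Over all 7 lists outside the family, 3 of 90 tested genes rose, 1 fell and 21 (23.3%) had an unadjusted p under 0.05, against 14.9% of all tested genes. These lists were chosen with earlier results of these data known, so nothing is read from that difference.

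**Figure D5:**
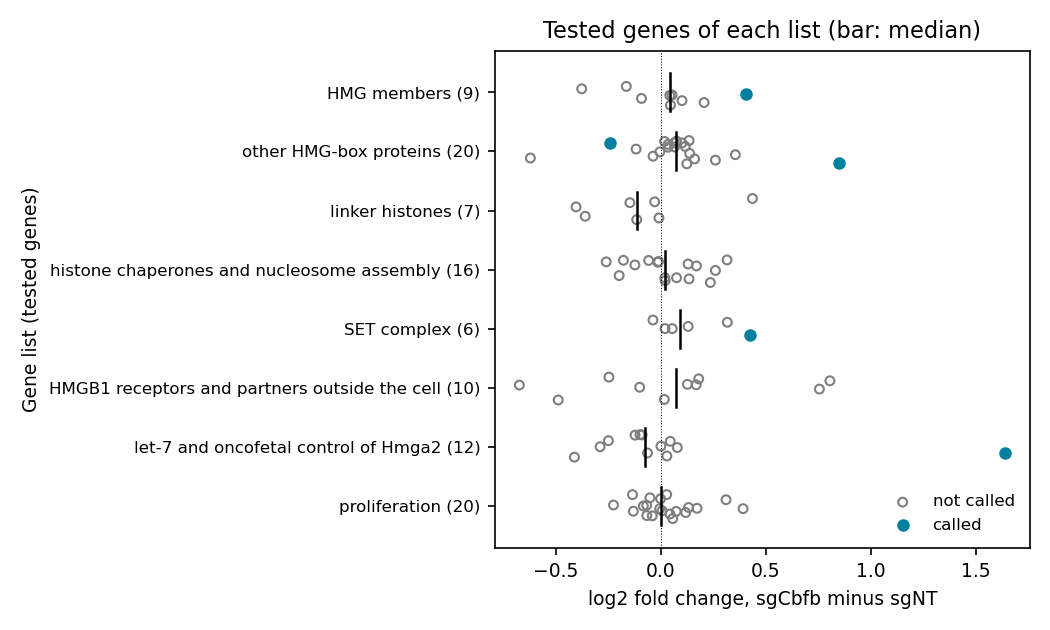
Log2 fold change of sgCbfb over sgNT (x axis) for each tested gene of the HMG family and of the 7 further lists (rows, number of tested genes in brackets), filled where called, with a black bar at the median. Medians lie between -0.11 and 0.09, and the called genes are Hmgb3, Sox4, Sox9, Anp32a and Igf2bp1.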

How the data were processed

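RNA of MC38 cells was sequenced as QuantSeq 3′ libraries with single-end reads of 75 bases. According to the methods and the submitters' processing notes, the authors used cutadapt 1.9 for trimming, HISAT2 2.1.0 for alignment to GRCm38/mm10, FeatureCounts for counting (2.0.1 in the notes, while the methods name an earlier Subread release) and voom with limma for testing. What was deposited is log2 CPM for each library, to which a prior count of about 2, scaled to library size, had been added. The annotation release, strand use and handling of multi-mapped reads are not given in the sources used here.

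Whole reads were recovered from the deposited log2 values, of which at least 99.99% above the floor lay within 0.1 of a whole number. The 12207 genes that reached a log2 CPM of 0 in 2 or more libraries entered a test with limma 3.58.1 in R 4.3.3 (lmFit, eBayes with trend) on the deposited values, two-sided, with Benjamini-Hochberg adjustment over all of them and a threshold of 0.05. The test was checked on simulated data in which 200 genes were changed by a log2 value of 1, up or down. It recovered 169 of them (84.5%) with 5 false calls. Smaller changes, such as those of the members, were not simulated. The labels do not say that replicates came from separate cultures, so p-values measure only the spread between these libraries. Replicates differed by more than counting noise (chi-square per degree of freedom 1.58 in sgNT and 2.15 in sgCbfb over 9520 genes). The ribosomal gene Rn45s took 11.3% to 13.9% of reads.

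Members and gene lists were chosen with earlier results of these data known. Named genes are all members, HMG rows with at least 10 reads, Cbfb, the called genes of each list and, with fewer than 3 called, up to 4 of its most abundant genes, and the 5 genes nearest to Hmgb3. Cell type markers, Ager, Lin28b, Npm3, Cenpf and listed genes with 0 reads were named outside this rule, after their values were seen. Alternatives were other filters, scalings, variance models and voom on recovered reads, a replicate block and each library left out. Positions and transcripts are from GENCODE M21, and promoters and microRNAs from RefSeq (GRCm38.p6). Scripts ran in Python 3.11.15 with numpy 2.4.6, pandas 2.3.3 and matplotlib 3.10.9.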

Additional observations from a re-analysis of the deposited data

How the results depend on the processing

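Of the 9 members, only Hmgb3 and Hmgn1 changed call over the 13 alternatives. Hmgb3 was called in 8 of them, and Hmgn1 in 4. The number of members called higher, 1 as reported, was 2 (Hmgb3 and Hmgn1) with a minimum of 5 CPM, under both voom fits and with the replicate block, 0 under quantile normalisation and without the trend, and 0 to 1 with 1 library left out. No gene at all was called without sgCbfb replicate 1 or 2, where 1104 and 1169 genes had an unadjusted p under 0.05 and the lone library is assumed to vary like the other group, or without the trend, where 1461 had. Members called lower stayed at 0 at every setting. For listed genes called higher, 3 as reported, the count was 1 under quantile normalisation, 0 without the trend and 0 to 3 with 1 library left out. For listed genes called lower, 1 as reported, it was 0 without the filter, under quantile normalisation and without the trend, 4 at 5 CPM, 3 with median centring, without ribosomal RNA in the totals and with the replicate block, 2 under voom with library totals, 5 under voom with median-of-ratios scaling and 0 with any library left out. Cbfb lost its call without the trend (-1.27, limma adjusted p = 0.115) and without either sgCbfb library, and ran from -1.41 to -1.12 with 1 library left out. Over all tested genes, 345 were called as reported (192 higher, 153 lower), 509 at 5 CPM, 83 under quantile normalisation (39 higher, 44 lower), 535 with the replicate block, 201 and 179 without sgNT replicate 1 and 2, and 174 higher and 242 lower under voom with median-of-ratios scaling. Over all tested genes, the differences between replicates 1 and 2 were not correlated between the groups (r = -0.00417). That value includes genes with few reads, so it cannot tell whether same-numbered libraries shared a culture or day. Small values that turned sign were those of uncalled genes. Under quantile normalisation these were Nme1 (-0.0293), Npm1 (-0.0553) and Pbrm1 (-0.0129). Under median centring they were Nme1 (-0.0027), Npm1 (-0.0038) and Pbrm1 (-0.0052), and without ribosomal RNA in the totals Nme1 (-0.0028), Npm1 (-0.0040) and Pbrm1 (-0.0054). Under voom with median-of-ratios scaling they were Nme1 (-0.0166), Npm1 (-0.0172), Pbrm1 (-0.0245), Top2a (-0.0106) and Zcchc11 (-0.0126). With 1 library left out, the ranges were -0.160 to 0.0335 for Ago2, -0.0776 to 0.168 for Drosha, -0.0730 to 0.0146 for H1f0, -0.0447 to 0.202 for Igf2bp2, -0.0211 to 0.0616 for Nme1, -0.0215 to 0.0596 for Npm1, -0.0073 to 0.0425 for Pbrm1 and -0.0057 to 0.0636 for Zcchc11. Among the members, Hmga1 ran from -0.09 to 0.30, Hmgb1 from -0.04 to 0.14, Hmgn3 from -0.06 to 0.14, Hmgn5 from -0.27 to -0.05 and Hmgn2 from -0.71 to -0.04. The causes were not tested. Hmgn2 fails the 5 CPM minimum, and no other pseudocount was tried, since the deposited values are already logarithms.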
